A study of Mus musculus with 12 samples.

Results

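Collagen folding and crosslinking enzymes were measured in the injured spinal cord of ApoE4 mice. The set holds 10 genes, namely SERPINH1, P4HA1, P4HA2, PLOD1, PLOD2, PLOD3, LOX, LOXL1, LOXL2 and LOXL3, and was chosen by name with earlier results of these tables in view. Of the 13647 genes listed above the lesion 9 were members, and of the 12338 listed below the lesion 9 were members. LOX is not listed above the lesion and P4HA1 is not listed below it, so 8 members had values at both sites. All mice were male, expressed the human ApoE4 variant, and received a contusion at thoracic vertebra T9 at 4 months of age. They carried either both normal synj1 alleles (ApoE4 synj1+/+) or 1 inactive allele (ApoE4 synj1+/-), and synj1 encodes the lipid phosphatase synaptojanin 1. RNA was sequenced at 14 days after surgery from cord just above or just below the epicenter, with 3 libraries in each of 4 groups and 12 in all. The study calls its animals ApoE4 TR mice without expanding TR, and the promoter that drives human ApoE4 is not named in the sources used here. Sham-operated and ApoE3 mice were not analysed here, so no value below is a comparison with uninjured cord.

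Collagen chains are modified and folded inside the endoplasmic reticulum (ER) before they are secreted. Prolyl 4-hydroxylases make the hydroxyproline that keeps the triple helix stable, lysyl hydroxylases make the hydroxylysine used for sugar attachment and crosslinks, and the chaperone HSP47, product of SERPINH1, binds the folded helix. Outside the cell, lysyl oxidases oxidize lysine and hydroxylysine residues, which then join neighboring collagen or elastin molecules covalently. In the spinal cord, collagen lies mainly in the meninges and around blood vessels, and fibroblasts deposit it in the scar that forms after contusion.

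Each value is 1 number that the authors computed from the 3 libraries of a group, here called a pool, in FPKM, which scales fragment counts by transcript length and library size. The values were read as FPKM plus 1 from their lowest value and decimals, since no label says so, and each FPKM printed rests on that reading. The table gives no value of a single library. The spread between libraries is therefore unknown, no difference was tested here, the results of the authors' own test were not used, and a gene is described as past the fold where the pooled values differed by 1.5-fold or more. Ratios are given as log2 of FPKM plus 1 in the pool labelled synj1+/- over the pool labelled synj1+/+. Where a pair of FPKM values follows, the pool labelled synj1+/+ comes first. SYNJ1 itself ran against the labels. Above the lesion the pool labelled synj1+/+ had an FPKM of 1904 and the pool labelled synj1+/- one of 2403. The values below the lesion were 1846 and 2592. SYNJ1 was thus higher in the pool labelled as carrying the inactive allele at both sites. The mice were genotyped by PCR, and every direction below rests on the labels as given.

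Sequence upstream of the gene start was read for the members in the RefSeq promoter table (GRCm38.p6), which holds 5 of the 10 members: SERPINH1, P4HA1, P4HA2, PLOD1 and PLOD3. The 250 bases before the start are printed for SERPINH1, the member of highest level below the lesion, and for both prolyl 4-hydroxylase subunits, whose ratios lay closer to 0. Each is written 5′ to 3′ on the strand of its gene. Capitals mark the letters ACGTG, a form of the core of the hypoxia response element, or CACGT where these letters lie on the opposite strand. The other form of the core, GCGTG, was not searched or marked, and it also occurs in the P4HA1 and P4HA2 windows. The windows are chr7:99353240-99353489 on the minus strand for SERPINH1, chr10:59323046-59323295 on the plus strand for P4HA1 and chr11:54100674-54100923 on the plus strand for P4HA2. None of these windows overlaps an annotated exon. The P4HA2 window lies inside the annotated gene span, which starts at 54100095, and is thus intronic for the longest gene model.
SERPINH1: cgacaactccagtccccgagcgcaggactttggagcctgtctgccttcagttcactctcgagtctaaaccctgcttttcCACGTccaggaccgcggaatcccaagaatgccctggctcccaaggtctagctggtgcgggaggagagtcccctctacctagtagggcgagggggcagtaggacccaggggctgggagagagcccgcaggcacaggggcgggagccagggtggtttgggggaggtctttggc
P4HA1: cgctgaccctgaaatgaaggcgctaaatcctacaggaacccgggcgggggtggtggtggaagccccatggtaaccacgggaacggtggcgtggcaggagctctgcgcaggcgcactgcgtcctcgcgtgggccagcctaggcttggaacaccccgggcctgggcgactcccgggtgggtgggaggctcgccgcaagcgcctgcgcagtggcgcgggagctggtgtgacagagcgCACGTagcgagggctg
P4HA2: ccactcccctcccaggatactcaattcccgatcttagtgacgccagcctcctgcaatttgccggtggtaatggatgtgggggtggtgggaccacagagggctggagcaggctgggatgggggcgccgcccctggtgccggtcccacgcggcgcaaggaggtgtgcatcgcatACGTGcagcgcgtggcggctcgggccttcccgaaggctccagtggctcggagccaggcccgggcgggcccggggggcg

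The ACGTG form of the core, searched on both strands, occurred in 4 of the 5 member windows and in 16.6% of all 32851 windows of this length. It began 171 bases before the start in SERPINH1, 78 bases before it in P4HA2 and 16 bases before it in P4HA1. The fourth match was in PLOD3, whose window overlaps an exon of Znhit1. PLOD1 had no ACGTG, but its window holds the GCGTG form, which was not searched. The 5 windows held from 55.6% (PLOD3) to 70% (P4HA2) G and C. The shares over all windows given here were not matched for that. The GC box GGGCGG occurred in 4 of 5 member windows and in 32.7% of all windows. The letters CAGAC, a SMAD binding element, were found in SERPINH1 and PLOD1 and in 42.2% of all windows. TATAAA was found in PLOD1 only among the 5 windows and in 12.4% of all. The letters GAANNTTC, a form of the heat shock element pair, were in 0 of 5 member windows and in 6.69% of all windows. The other form of this pair, with its parts in the opposite order, was not searched, and it occurs in the P4HA2 window. The 0 of 5 thus holds for the searched form only. These are matches of letters in a short window, and windows of the other 5 members were not analysed here.

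Below the lesion, SERPINH1, LOX, LOXL1 and PLOD2 were lower past the fold in the pool labelled synj1+/-, and the other 5 listed members were lower by smaller amounts. Thus 4 of 9 listed members were lower past the fold, beside 4.38% of all genes listed below the lesion, and 0 were higher past it, beside 1.16%. All 9 had a lower value, as did 47.2% of all genes. The median log2 ratio of the 9 was -0.57, and that of all genes was 0.01. Above the lesion, 0 of 9 listed members were past the fold, beside 1.94% of all genes lower and 0.791% higher past it. All 9 again had a lower value there, as did 51% of all genes, with a median of -0.22. Each of the 8 members listed at both sites was lower at both, which held for 29.1% of 12023 genes. The members were chosen with these ratios known, so the counts describe the set and support nothing about it.

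**Figure D1:**
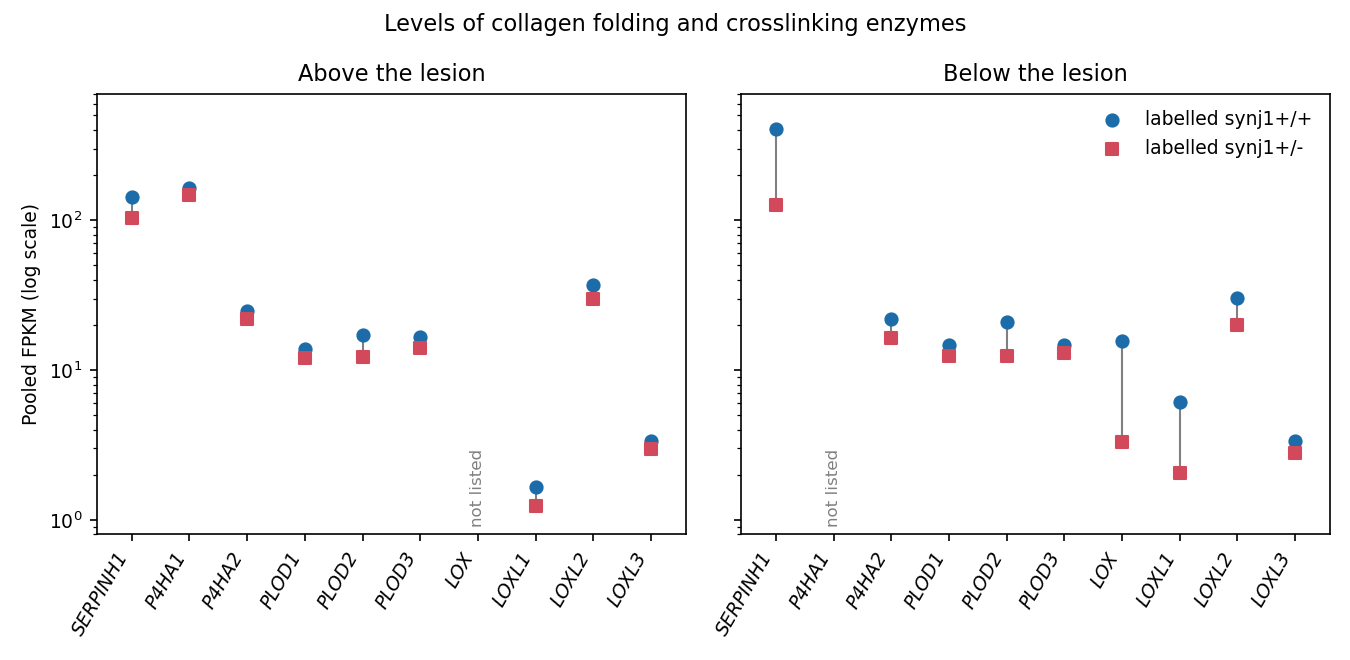
Pooled FPKM of each enzyme gene (log scale) in the groups labelled synj1+/+ (circles) and synj1+/- (squares), above the lesion (left) and below it (right). Each point is 1 pooled value of 3 libraries, so there are no error bars; the widest gaps are those of SERPINH1 (405 against 126), LOX (15.6 against 3.33) and LOXL1 (6.16 against 2.07) below the lesion.

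SERPINH1 encodes HSP47, a chaperone specific to collagen that leaves the helix at the Golgi. The gene lies at chr7:99345376-99353239 on the minus strand (GRCm38). Its FPKM above the lesion was 142 in the pool labelled synj1+/+ and 103 in the pool labelled synj1+/-, a log2 ratio of -0.45. Below the lesion the values were 405 and 126, a log2 ratio of -1.67 or 3.19-fold. The 3 values other than that of synj1+/+ below the lesion thus lay between 103 and 142, and the one of 405 stood apart. Its ratio below the lesion ranked 38 from the lowest of 12338, and above the lesion 487 from the lowest of 13647. Few genes of that level were lower past the fold. Among the 25% of genes with the highest mean FPKM below the lesion, to which SERPINH1 belonged, 1.52% were.

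The prolyl 4-hydroxylase subunits P4HA1 and P4HA2 carry the catalytic site of the enzyme, P4HA1 in most cell types and P4HA2 with a more restricted expression. P4HA1 (chr10:59323296-59373304, plus strand) had an FPKM of 164 in the pool labelled synj1+/+ and 146 in the pool labelled synj1+/- above the lesion, a log2 ratio of -0.16. It was the most abundant member above the lesion, ahead of SERPINH1. P4HA2 (chr11:54100095-54131665, plus strand) had 24.8 and 22.0 above the lesion, a log2 ratio of -0.17. Below the lesion it had 22.0 and 16.3, a log2 ratio of -0.40. Neither subunit was past the fold at a site where it was listed.

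The lysyl hydroxylases had similar levels to each other and differed in their ratios. PLOD2, which hydroxylates lysines in the ends of the collagen chain and lies at chr9:92542223-92608428 on the plus strand, had an FPKM of 17.1 and 12.3 above the lesion, a log2 ratio of -0.44. Below the lesion it had 20.9 and 12.4, a log2 ratio of -0.71 or 1.63-fold. It was the member closest to the threshold among those past it. PLOD1, which acts on lysines of the helix and lies at chr4:147909753-147936767 on the minus strand, had 13.8 and 12.1 above the lesion and 14.6 and 12.4 below. Its log2 ratios were -0.17 and -0.22. PLOD3, which also adds sugars to hydroxylysine and lies at chr5:136987019-136996648 on the plus strand, had 16.6 and 14.1 above the lesion and 14.8 and 12.9 below. Its log2 ratios were -0.22 and -0.18, so PLOD3 was the only one of the 8 members listed at both sites whose ratio lay closer to 0 below the lesion than above it.

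Among the lysyl oxidases, LOX and LOXL1 were lower past the fold below the lesion, and LOXL2 and LOXL3 were not. LOX, the enzyme that crosslinks fibrillar collagens and elastin, had an FPKM of 15.6 in the pool labelled synj1+/+ and 3.33 in the pool labelled synj1+/- below the lesion. The log2 ratio of -1.94, or 3.83-fold, was the lowest of any member and ranked 23 from the lowest of 12338. LOXL1, which acts on elastic fibers and lies at chr9:58287738-58313186 on the minus strand, had 6.16 and 2.07 below the lesion, a log2 ratio of -1.22. Above the lesion it had 1.66 and 1.24, the lowest level of a member, with a log2 ratio of -0.25. Both genes lay in the lowest 25% by mean FPKM below the lesion, in which 8.4% of genes were lower past the fold.

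LOXL2, which crosslinks the type IV collagen of basement membranes and lies at chr14:69609068-69695834 on the plus strand, was the most abundant lysyl oxidase at both sites. Its FPKM was 37.1 and 29.8 above the lesion and 30.3 and 20.0 below, with log2 ratios of -0.31 and -0.57. At 1.49-fold it lay just outside the threshold below the lesion, and without the added 1 its log2 ratio was -0.60, past it. LOXL3 (chr6:83034173-83052562, plus strand), which is needed for normal palate and spine development, had 3.36 and 2.96 above the lesion and 3.36 and 2.81 below. Its log2 ratios of -0.14 and -0.19 were among the smallest in the set.

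**Figure D2:**
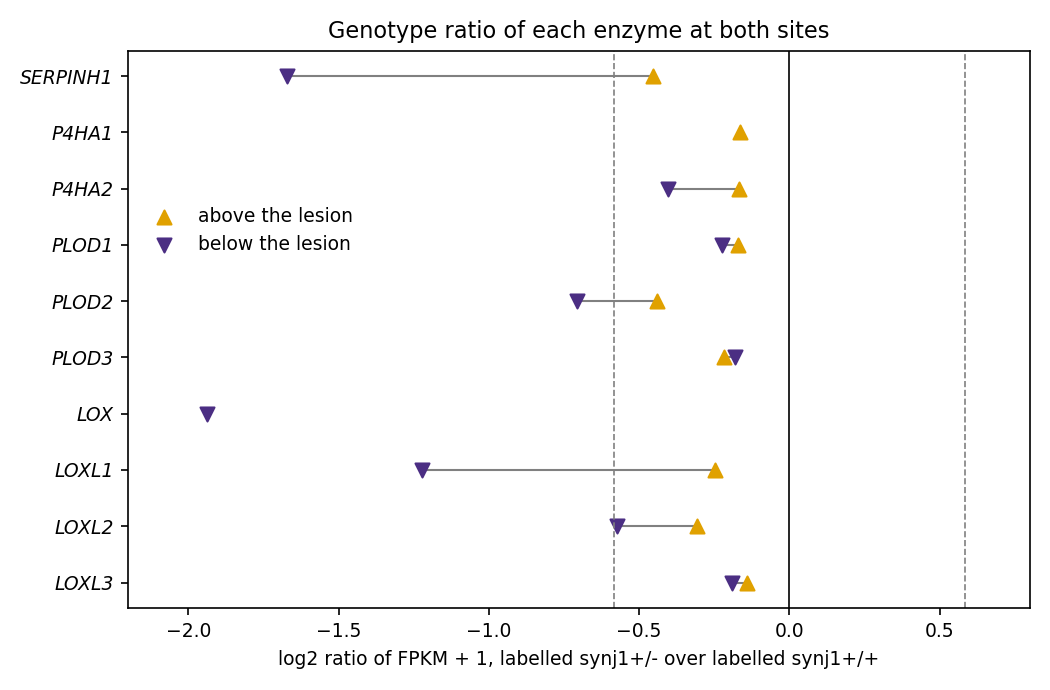
Log2 ratio of FPKM plus 1, labelled synj1+/- over labelled synj1+/+, for each enzyme above (triangles up) and below (triangles down) the lesion, joined by a line where both are listed; dashed lines mark 1.5-fold. All 18 points lie left of 0, and below the lesion LOX (-1.94), SERPINH1 (-1.67), LOXL1 (-1.22) and PLOD2 (-0.71) lie left of the dashed line.

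Summed over members, FPKM above the lesion was 420 in the pool labelled synj1+/+ and 344 in the pool labelled synj1+/-. Below the lesion the sums were 533 and 209, so the second was 39.2% of the first. The sites differ in the genes summed, with P4HA1 (164 and 146) above the lesion only and LOX (15.6 and 3.33) below only. SERPINH1 made up 76.0% of the sum below the lesion in the pool labelled synj1+/+ and 60.6% in the other pool, so these sums follow that gene. By role, the pool labelled synj1+/- held 31.2% of the FPKM of the other for the chaperone, 51.0% for the 4 lysyl oxidases, 74.9% for the 3 lysyl hydroxylases and 74.5% for P4HA2 below the lesion. Above the lesion the same shares were 72.8% for the chaperone, 80.6% for 3 lysyl oxidases, 81.3% for the lysyl hydroxylases and 89.1% for both prolyl 4-hydroxylase subunits.

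The reads of each site were reduced and normalised separately, so levels above and below the lesion are set side by side only. Both segments may also come from the same mice. In the pool labelled synj1+/+, SERPINH1 had an FPKM of 142 above and 405 below the lesion, 2.84-fold more below on the scale of FPKM plus 1. LOXL1 had 1.66 and 6.16, a log2 ratio of 1.43. Of the 8 members listed at both sites, 5 had a higher value below the lesion in that pool, beside 49.8% of all genes. LOXL3 counts among them with 3.357 above and 3.359 below, a log2 ratio of 0.00065. Besides SERPINH1 and LOXL1, the other 6 members listed at both sites had log2 ratios from -0.28 to 0.28 in that pool. In the pool labelled synj1+/-, the log2 ratios of all 8 lay between -0.55 (LOXL2) and 0.45 (LOXL1), and that of SERPINH1 was 0.29. In that pool 4 of 8 had a higher value below the lesion, beside 55.5% of all genes. The medians over all genes were -0.00083 and 0.02. SERPINH1 and LOXL1 had their higher value below the lesion in both pools, and the difference between the pools was not tested.

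**Figure D3:**
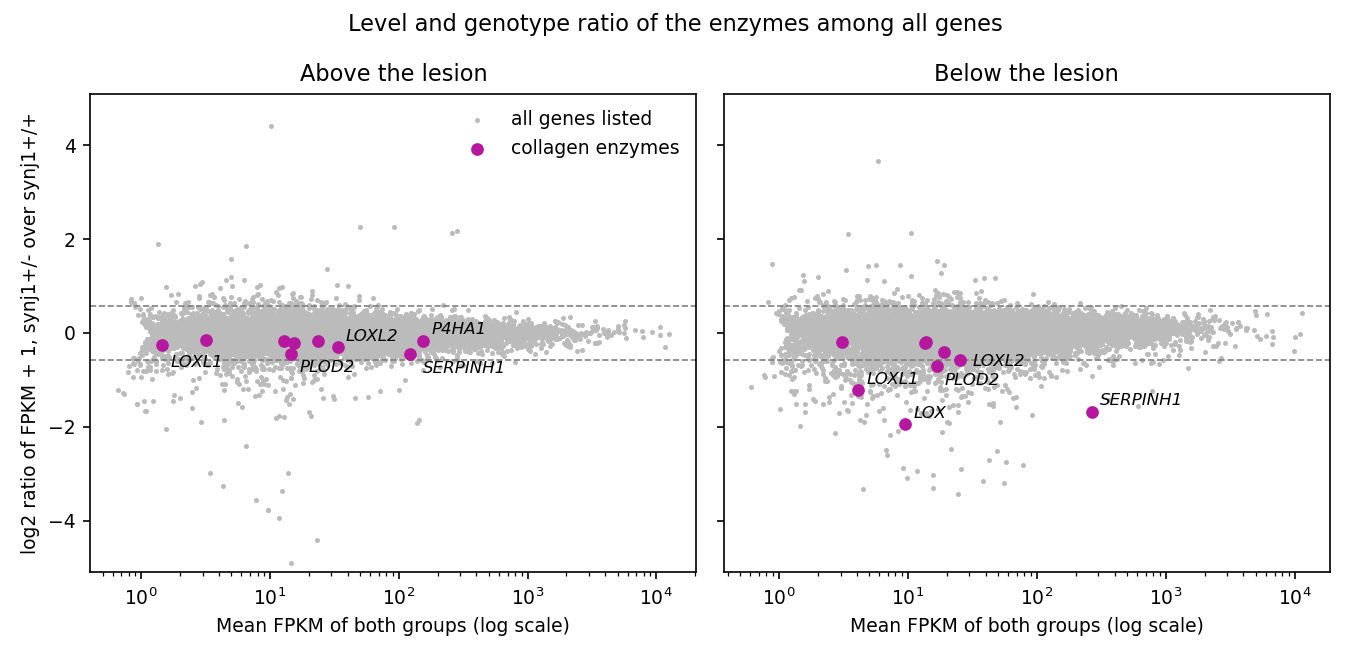
Log2 ratio of FPKM plus 1 (labelled synj1+/- over labelled synj1+/+) against mean FPKM of both groups (log scale) for all genes listed above (13647, left) and below (12338, right) the lesion in grey and the enzymes in color; dashed lines mark 1.5-fold. SERPINH1 below the lesion combines a mean FPKM of 266 with a log2 ratio of -1.67, while LOX (9.46) and LOXL1 (4.11) lie among genes of low level, where ratios scatter more widely.

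Other genes that act on collagen after translation were mostly nearer to 0 than the members. Of 32 symbols in this list, 21 were listed above the lesion, where 9 had a lower value, 0 were past the fold and the median log2 ratio was 0.02. Below the lesion 19 were listed, 16 had a lower value, 4 were lower past the fold and the median was -0.15. PCOLCE, which enhances removal of the procollagen C-propeptide, had an FPKM of 31.9 and 10.0 below the lesion, a log2 ratio of -1.58. FKBP10, a prolyl isomerase of the ER that works with HSP47, had 23.3 and 12.4, a log2 ratio of -0.86. CRTAP, part of the prolyl 3-hydroxylase complex, had 10.7 and 5.71, a log2 ratio of -0.80. SPARC, a collagen-binding matrix protein, had 3111 and 2068, a log2 ratio of -0.59, just inside the threshold. Above the lesion the log2 ratios of these 4 genes were 0.08, 0.23, -0.20 and -0.19. BMP1, the protease that removes the C-propeptide and also activates LOX, had 241 and 223 below the lesion, a log2 ratio of -0.11. P4HB, the partner subunit of the prolyl 4-hydroxylases, had a log2 ratio of -0.36 there.

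Collagens and elastic fiber genes were lower by more than most of the enzymes below the lesion. Of 30 symbols, 26 were listed there, 25 had a lower value and 21 were lower past the fold, with a median log2 ratio of -1.17. Above the lesion 23 were listed, 19 had a lower value and 1 was past the fold, with a median of -0.20. COL3A1, a fibrillar collagen of scars and vessels, had an FPKM of 68.9 and 6.91 below the lesion, a log2 ratio of -3.14. It was also the gene past the fold above the lesion, with 4.26 and 0.728 and a log2 ratio of -1.60. COL1A1 and COL1A2, the chains of type I collagen, had log2 ratios of -2.91 and -2.71 below the lesion. Fibrillar COL5A1 and COL5A2 had -0.96 and -0.84.

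All 5 listed collagens of the basement membrane were lower past the fold below the lesion, COL4A1, COL4A2, COL4A5, COL15A1 and COL18A1. Their log2 ratios ranged from -1.36 (COL18A1) to -0.66 (COL4A2). COL6A1, COL6A2, COL6A3, COL8A1, COL8A2, COL12A1 and COL14A1 were past the fold too, and the lowest ratio was -2.11 for COL6A3. Of 5 elastic fiber genes 4 were past the fold: ELN (-1.53), which encodes the lysyl oxidase substrate elastin, EMILIN1 (-1.42), FBN1 (-1.38) and FBLN5 (-0.72). COL16A1 and COL11A2, the collagens of highest mean level, had log2 ratios of -0.34 and -0.08 and were not past it.

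**Figure D4:**
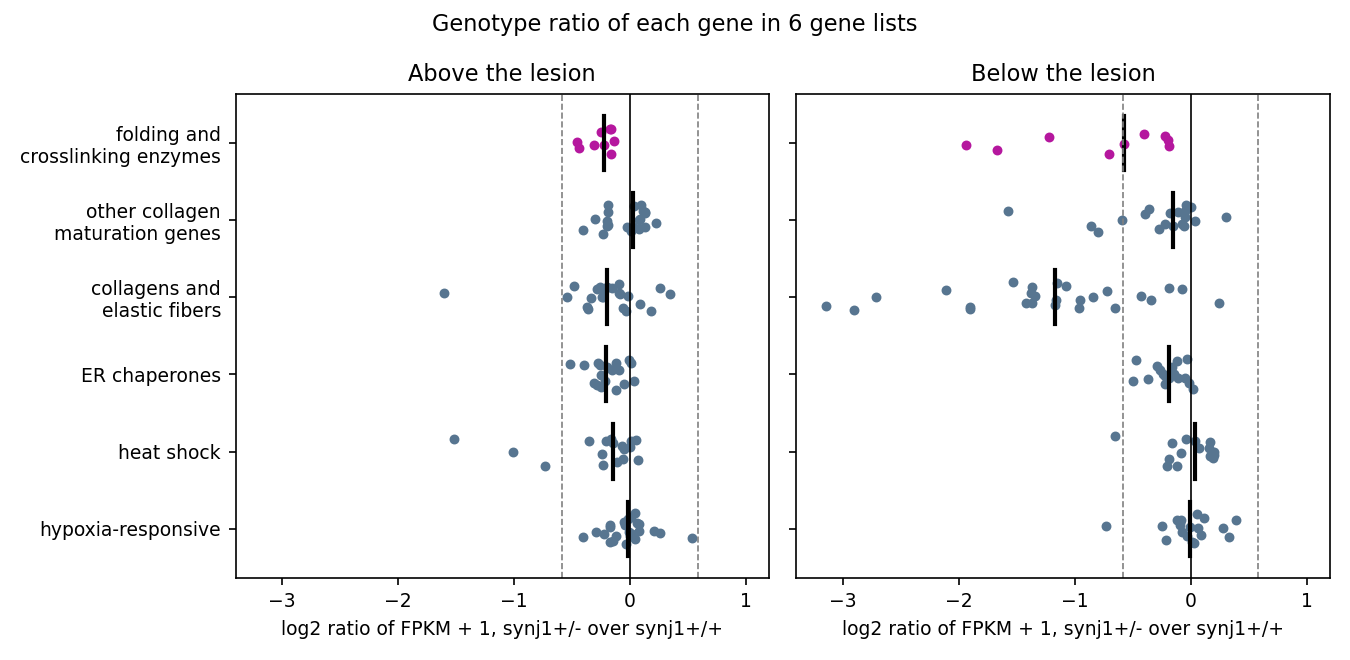
Log2 ratio of FPKM plus 1 (labelled synj1+/- over labelled synj1+/+) of each listed gene in 6 gene lists, above (left) and below (right) the lesion; black bars are medians, dashed lines mark 1.5-fold and vertical scatter within a list has no meaning. Below the lesion the median was -1.17 for collagens and elastic fibers, -0.57 for the folding and crosslinking enzymes and between -0.18 and 0.04 for the other 4 lists.

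P4HA1, P4HA2, PLOD2 and LOX are known as genes that low oxygen induces through the hypoxia response element. Other hypoxia-responsive genes had a median log2 ratio of -0.01 at both sites, with 0 of 24 listed genes past the fold above the lesion and 1 of 19 below. That gene was HK2, a hexokinase, with an FPKM of 12.1 and 6.92. The glycolytic enzymes ALDOC and ENO1, of highest level in the list, had log2 ratios of -0.08 and -0.12 below the lesion. General ER chaperones and unfolded protein response genes were lower in value in 16 of 18 above and 16 of 17 below the lesion, with medians of -0.20 and -0.18 and 0 past the fold. HSPA5, the main ER chaperone, had an FPKM of 398 and 302 above the lesion and 330 and 307 below. CANX, a lectin chaperone of the ER membrane, had log2 ratios of 0.01 and -0.03.

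SERPINH1 is also counted among heat shock proteins. The list of heat shock genes, which includes the mitochondrial chaperonins HSPD1 and HSPE1, had a median log2 ratio of -0.14 above and 0.04 below the lesion. HSPA1A and HSPA1B, inducible HSP70 genes of nearly identical sequence whose reads may be split between them, had log2 ratios of -1.01 and -1.52 above the lesion and -0.04 and -0.20 below. HSPB1, the small heat shock protein HSP27, had -0.73 and -0.65 and was past the fold at both sites. CRYAB, of highest level, had -0.16 above the lesion, and HSP90AB1 had -0.06 and 0.07. SERPINH1 had its lower ratio below the lesion, and both HSP70 genes had theirs above it.

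Over 8844 genes listed at both sites and above the lowest 25% of levels, the 5 whose pair of log2 ratios lay nearest to that of SERPINH1 were IGF2, HSPB11, IFITM1, IGF1 and BGN, at distances from 0.13 to 0.26. IGF2, an insulin-like growth factor, had an FPKM of 904 and 305 below the lesion and 89.4 and 62.1 above. IGF1, the related growth factor, had 532 and 198 below and 218 and 158 above. BGN encodes the proteoglycan biglycan and had 142 and 41.5 below the lesion. IFITM1, an interferon-induced membrane protein, had 82.5 and 21.5 there, and HSPB11, an intraflagellar transport protein, had 19.9 and 5.39. IGF2, IFITM1, IGF1 and BGN shared with SERPINH1 a value in the pool labelled synj1+/+ below the lesion that stood above the other 3, and HSPB11 did not.

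Markers of fibroblasts and of microglia and macrophages were also lower in value. Of 10 fibroblast markers, 10 were listed below the lesion, 9 had a lower value and 8 were lower past the fold, with a median log2 ratio of -1.36 and summed FPKM of 817 and 583. Above the lesion 8 were listed, 7 had a lower value and 0 were past the fold, with a median of -0.26 and sums of 510 and 494. DCN (decorin) had an FPKM of 138 and 18.8 below the lesion, LUM (lumican) 21.7 and 1.94, and no listed marker was at 0. THY1, which neurons also express, made up most of both sums, with 413 and 464 below the lesion. The list of microglia and macrophage markers holds 16 symbols, with ADGRE1 also under its other name EMR1. In it, 12 of 13 listed above and 12 of 12 listed below had a lower value. Of these, 6 and 7 were past the fold, with medians of -0.50 and -0.64 and summed FPKM of 2501 and 1704 above and 3870 and 2269 below. In bulk tissue, fewer cells of a type and less RNA per cell cannot be told apart, and the part of either cell type in the enzyme values was not tested.

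Other cell types were described by their lists in the same way. The medians above and below the lesion were 0.07 and -0.14 for endothelial cells, 0.20 and -0.16 for pericytes and smooth muscle, -0.27 and -0.18 for astrocytes, -0.12 and 0.02 for oligodendrocytes and 0.07 and 0.30 for neurons. Of the 10 neuron markers listed below the lesion, 10 had a higher value and 0 were past the fold, with summed FPKM of 8577 and 10881. Neuronal SNAP25 and astrocytic GFAP were among the abundant genes in all 4 groups, as is usual for spinal cord, while the myelin genes MBP, MAG and CNP were not analysed here.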

How the data were processed

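RNA-seq libraries (TruSeq, random primed) were made from 12 spinal cord samples, 3 in each of 4 groups defined by genotype and site. Per the labels and the study's methods, the authors reduced the reads of each site to the smallest library of that site, aligned them with STAR 2.5.4b to GRCm38.p6, and obtained gene values with Cuffdiff 1.3.0 under upper quartile normalisation. The annotation is not given in the sources used here. The deposited table holds 1 value per gene, site and group, which was read as FPKM plus 1 although no label states it: the lowest value is exactly 1, and the share of values with 5 or more decimals drops at 11 (83.9% between 10 and 11, 50.3% between 11 and 12). The FPKM of a group, after subtraction of 1, sums to between 1319689 and 1686358. Columns of single libraries number 0, so depth per library, SD and tests over libraries could not be had. Columns with the authors' own comparisons (linear and log2 fold changes, p and q) and a shorter list limited by p were not used.

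Log2 ratios were taken with a pseudocount of 1, and a gene was past the fold at 1.5-fold. Members, the 14 gene lists and the alternatives were chosen with earlier results of these data known. Beside members and SYNJ1, the genes named in a list that is not of cell type markers are those past the fold at either site and the 2 of highest mean FPKM, and for SERPINH1 the 5 nearest genes by distance of the ratio pair. P4HB, DCN, LUM, THY1, SNAP25 and GFAP were named after their values were seen. The result of 1 list, Schwann cell markers, is not reported here. Gene positions come from the GENCODE annotation of GRCm38, matched by symbol for all 10 members, and upstream windows of 250 bases from RefSeq. Alternatives were a pseudocount of 0.1 or 0, scaling to the sum, centring on the median, folds of 2 and 1.25, the mean in place of the median, and removal of the 25% of genes of lowest mean. The calculations were tested on simulated data made without noise from the same formula, which checks the code only. Python 3.11.15, numpy 2.4.6, pandas 2.3.3 and matplotlib 3.10.9 were used.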

Additional observations from a re-analysis of the deposited data

How the results depend on the processing

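Each value is pooled over 3 libraries, so leaving out a replicate could not be done and no result carries a test. No paired analysis was possible because the table gives 1 pooled value per group and no column of a single library. All 72 values of member ratios recomputed with another pseudocount, scaling or centring stayed below 0. Over all 182 recomputed values, 14 crossed 1.5-fold or moved by over 1.5 times (for log2 values, also by over 0.1), and 168 did neither. In all, 4 log2 values changed sign, and 0 of these were of values past 1.5-fold. LOXL2 below the lesion crossed 1.5-fold under 4 alternatives, with log2 ratios of -0.60 (pseudocount of 0.1 or none, or scaled to the sum) and -0.59 (centred). The ratio of LOXL1 above the lesion was -0.39 with a pseudocount of 0.1 and -0.42 with none. At the looser fold threshold, 2 members were past the fold above the lesion (SERPINH1 and PLOD2). Leaving out the lowest 25% of genes left 2 members past it below the lesion, since LOX and LOXL1 belong to them. The median of the members below the lesion was -0.79 as a mean and -0.60 without a pseudocount, both past 1.5-fold. Among the other lists, the heat shock genes above had a mean of -0.28, other collagen maturation genes below a mean of -0.29, and without the lowest 25% of genes the fibroblast markers above had a median of -0.07. Without a pseudocount, 664 genes were lower and 250 higher past the fold below the lesion, against 541 and 143 with it. Above the lesion the counts were 358 and 173 against 265 and 108. With low genes near the added 1, as LOXL1 and LOXL3 are, ratios are understated and their precision is unknown.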

Other observations

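SERPINH1 was set beside the summed FPKM of COL1A1, COL1A2 and COL3A1, a ratio chosen after the values were seen. Above the lesion these 3 collagen genes summed to 15.8 in the pool labelled synj1+/+ and to 8.87 in the pool labelled synj1+/-, with 9.01 and 11.7 FPKM of SERPINH1 per FPKM of collagen. Below the lesion they summed to 190 and 22.8, with 2.13 and 5.55. At each site the chaperone was thus lower by less than this sum in the pool labelled synj1+/-. SERPINH1 per FPKM of collagen was lowest in the pool with the most collagen. The collagen sum is the divisor and ran from 8.87 to 190, while SERPINH1 ran from 103 to 405. That order thus largely follows the divisor and says little about the chaperone. By single gene, the order was reversed for COL1A2 above the lesion, with a log2 ratio of -0.36 beside -0.45 for SERPINH1. COL1A1 and COL3A1 had -0.54 and -1.60 there, and COL3A1 had an FPKM of only 4.26 and 0.728. With 1 pooled value per group the error of these ratios is unknown.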
